A study of Mus musculus with 6 samples.

Results

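The protein genes of the cytosolic ribosome were followed in mouse 4TO7 cells that carried Six2, against the same cells with an empty vector. Members were the array rows whose platform annotation named a single gene with an Rpl or Rps symbol and a number, together with Rplp0, Rplp1, Rplp2 and Rpsa. Kinases of the Rps6k family and pseudogenes were left out. This gave 73 genes of the 20848 measured and 359 of the 241576 rows, where a row is a probe set covering a part of a gene. Of these genes, 24 encode proteins of the small subunit, 42 encode proteins of the large subunit, and 7 are paralogs outside the standard set (Rpl3l, Rpl7l1, Rpl10l, Rpl22l1, Rpl36al, Rpl39l and Rps27l). All 73 were tested, with no filter on low values.

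The 4TO7 line is a mouse mammary tumour cell line. Total RNA of 3 samples of 4TO7 cells transduced for Six2 overexpression (Six2) and of 3 samples of 4TO7 cells transduced with pcDNA, the empty vector (control), was hybridised to 1 array each. Six2 is a homeobox transcription factor, and the series asks how its overexpression changes gene expression, E-cadherin in particular. Neither clones, cell passage nor separate cultures are named in the labels, so the p-values reflect only how much these arrays scatter, and that scatter may be technical. No batch is named either, so batch and Six2 cannot be told apart if they run together.

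The ribosome joins amino acids into protein and consists of a small subunit, which reads the mRNA, and a large subunit, which forms the peptide bonds. Each subunit holds ribosomal RNA and single copies of most of its proteins, and growing tumour cells need them in matched amounts. Most ribosomal protein mRNAs of mammals start with a C followed by a run of pyrimidines, the terminal oligopyrimidine (TOP) tract, through which mTORC1 sets how well they are translated. Their mRNAs are among the most abundant in dividing cells, and their genes are spread over most chromosomes with many processed pseudogenes elsewhere.

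Start sites with this feature are shown for genes whose values are described. RefSeq promoter windows (GRCm38.p6) matched 60 of the 73 genes. Each window below holds 30 bases before the annotated start and the first 20 transcribed bases, 5′ to 3′, with the pyrimidine tract at the start in capitals. The genes were picked among the 13 members whose tract begins exactly at the annotated start, so they are examples of the tract and not typical members. Rpl35 is shown because it passed the test, Rps21 as its neighbour in the account of chromosome 2, Rps10 and Rps18 for chromosome 17, Rps27 for chromosome 3 and Rps6 for its difference. Gas5, a small nucleolar RNA host gene that makes no protein, is shown because its RNA carries such a tract too. Their positions are chr2:39005112-39005161 on the minus strand for Rpl35, chr2:180257349-180257398 on the plus strand for Rps21, chr17:27635225-27635274 on the minus strand for Rps10 and chr17:33955646-33955695 on the minus strand for Rps18. Those of the others are chr3:90213629-90213678 on the minus strand for Rps27, chr4:86857348-86857397 on the minus strand for Rps6 and chr1:161035136-161035185 on the plus strand for Gas5.
Rpl35: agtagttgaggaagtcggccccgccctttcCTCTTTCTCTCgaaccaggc
Rps21: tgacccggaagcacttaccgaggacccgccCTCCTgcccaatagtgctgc
Rps10: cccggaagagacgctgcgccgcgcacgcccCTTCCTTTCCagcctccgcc
Rps18: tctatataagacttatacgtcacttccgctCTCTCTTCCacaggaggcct
Rps27: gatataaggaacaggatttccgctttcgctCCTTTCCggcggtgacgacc
Rps6: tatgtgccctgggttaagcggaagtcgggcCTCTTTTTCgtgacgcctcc
Gas5: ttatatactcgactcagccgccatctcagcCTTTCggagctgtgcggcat

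A tract of a C and at least 4 further pyrimidines began exactly at the annotated start in 13 of 60 members (21.7%), against 3.01% of all 27025 genes with a window. Allowing the tract to begin within 10 bases of the start, 38 of 60 members (63.3%) held it, against 34.4% of all genes. The ETS factor motif CCGGAAG lay on either strand of the 300-base window in 25 members (41.7%), against 9.93% of all genes. AAGATGGC, a core of the YY1 motif, lay in 6 members (10%), against 3.19% of all genes. The E-box CACGTG, bound by Myc and Max, lay in 6 members (10%), against 8.09%, and TATAAA lay in 7 (11.7%), against 15.7%. TCAGGTTTC, a motif bound by Six2 and its relatives, lay in 0 of 60, against 0.511% of all genes. These motifs were searched on both strands, a base could count towards several of them, and a match is not a measured binding site. Members with a tract at the start had a median difference of -0.14 (Six2 minus control, log2), and those without it of -0.04. With a tract within 10 bases of the start the medians were -0.09 with it and -0.04 without it. Neither contrast was tested. Since most ribosomal protein mRNAs carry a tract, members without one at the annotated start may still have it.

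Ribosomal protein mRNA levels differed little between Six2 and control cells. At the gene level, 0 of the 73 genes rose, 1 (Rpl35) fell and 72 did not pass the test (limma, two-sided, with a p adjusted by Benjamini-Hochberg across the 20848 genes under 0.05). Over all 20848 genes, 14.7% were called, 6.7% higher and 8.02% lower in Six2. At an unadjusted p under 0.05, 4 members were higher and 12 lower, against 13.3% and 17% of all genes. The log2 value of a gene is the median over its rows, and the median difference of the members was -0.07, with quartiles at -0.18 and 0.02 and extremes at -0.56 and 0.60. Over all genes the median difference was -0.05. Of the members, 51 had a negative and 22 a positive difference. The 3 Six2 arrays and the 3 control arrays did not overlap in 7 members that were higher in Six2 and in 25 that were lower, against 15.7% and 20.1% of all genes (35.8% in either direction). That share varied with the level of a gene, without a steady rise. Between means of 12 and 14 it was 2 of 12 members and 21 of 58 other genes. Among the 1123 genes with a mean above 10 it was 55.6%, with 19 of 45 members and 605 of 1078 other genes. By direction, these were 1 higher and 18 lower among the members, against 259 higher and 346 lower among the others. The median difference was -0.08 in these members and -0.03 in the other genes. With 3 against 3 arrays an exact two-sided permutation test of a single gene cannot give a p below 0.1.

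The intervals bound how large a difference between the array values could be. The 95% confidence interval of the difference lay between -0.5 and 0.5 for 56 of 73 members (76.7%), against 45.3% of all genes. Most members are bright on the arrays, and bright genes have narrower intervals. Among the 1123 genes with a mean log2 value above 10, 74.5% had such an interval, and among the 45 members above 10 it was 41 (91.1%). None of these 45 bright members passed the test, against 164 of the 1078 other genes above 10 (15.2%). In the 33 members with means between 10 and 12, 0 passed, against 16% of 1020 other genes in that range. Negative differences were held by 28 of the 33, against 573 of the 1020, with medians of -0.14 and -0.03. The 12 members with means above 12 all lay between -0.08 and 0.09, and 1.72% of the other 58 genes of that brightness passed. Those 58 also spread little, with quartiles at -0.07 and 0.03, against -0.18 and 0.13 for the 1020 between 10 and 12. Whether the arrays compress differences at the highest levels was not tested.

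How many members passed depended on the variance model. With a variance trend and robust variances in limma, 2 members rose and 13 fell (20.5% of 73), against 20.2% of all genes. The 2 were Rpl22l1 and Rpsa. The 13 were Rpl7a, Rpl7l1, Rpl11, Rpl15, Rpl35, Rpl36, Rps6, Rps10, Rps14, Rps18, Rps19, Rps21 and Rps24. Among bright genes the same setting called 8 of 45 members (17.8%), against 38.2% of the others. With the mean of the rows in place of the median, 3 members rose and 6 fell (12.3%), against 23.3% of all genes.

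**Figure D1:**
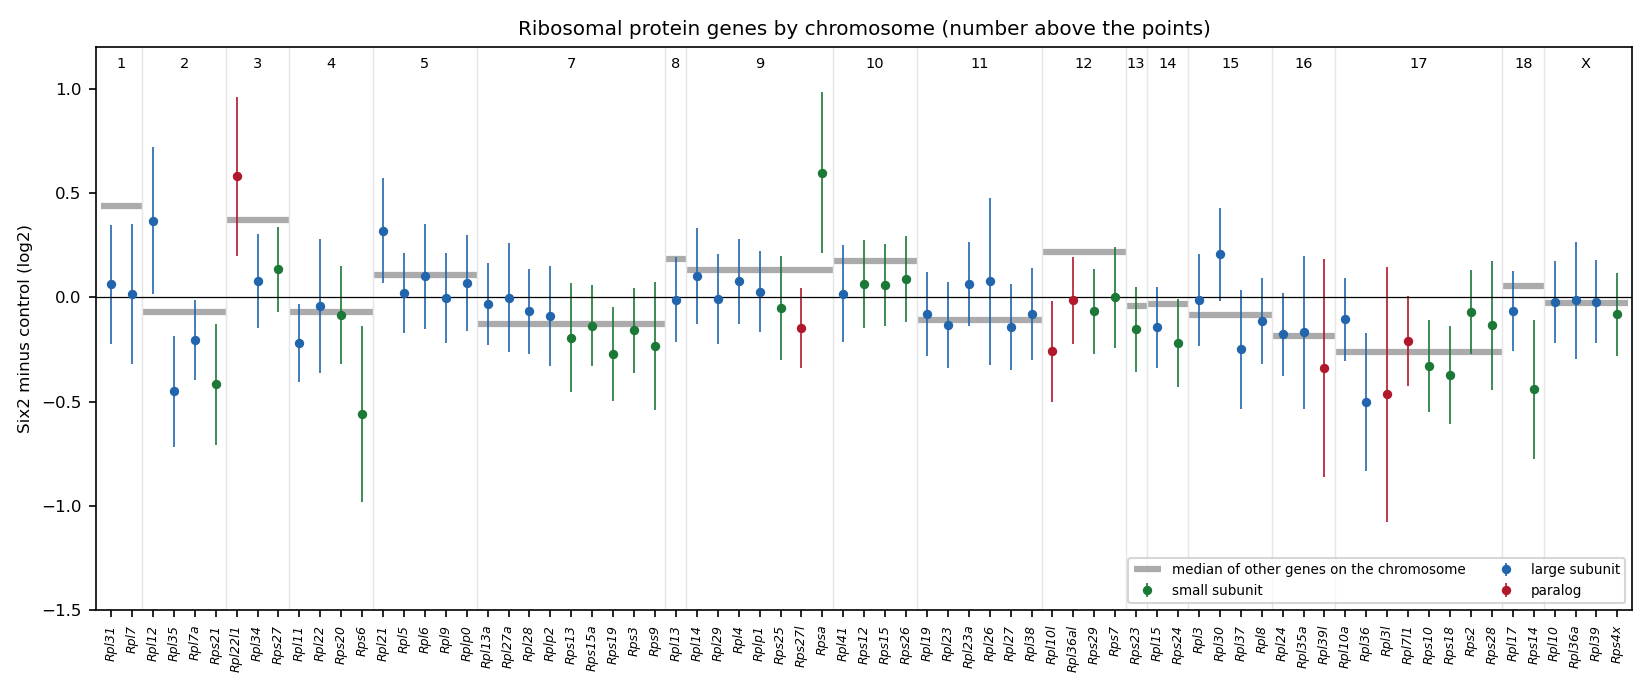
Difference of each of the 73 ribosomal protein genes (Six2 minus control, log2, vertical axis) with its 95% interval, ordered by chromosome along the horizontal axis. Colours mark the subunit and grey bars the median of the other genes of the chromosome. The 8 members on chromosome 17 and the 9 on chromosome 7 lie below 0, and Rpsa and Rpl22l1 have the highest values.

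Rpl35, a large subunit protein that sits near the exit of the peptide tunnel, was the gene that passed. Its log2 values were 9.44, 9.48 and 9.15 on the Six2 arrays, against 9.75, 9.83 and 9.83 on the control arrays. Each Six2 array lay below each control array, and the third Six2 array was the lowest. The difference was -0.45 (SE 0.11, adjusted p 0.040 by limma), with means of 9.36 ± 0.18 in Six2 and 9.81 ± 0.05 in control (SD, n = 3 each). The call rests on few measurements. Of its 3 rows, 2 hold identical values on all 6 arrays, at -0.45, and the remaining row gave -0.06. Another 5 rows name Rpl35 together with predicted genes and lay between -0.19 and -0.11. Counting the identical rows once gave -0.25 (adjusted p 0.096 by limma), and adding the shared rows gave -0.11 (adjusted p 0.46). Leaving out any array also ended the call, with differences between -0.51 and -0.35.

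On chromosome 2 with Rpl35, Rps21, a small subunit protein, had log2 values of 9.04, 9.13 and 8.73 on the Six2 arrays, against 9.44, 9.36 and 9.35 on the control arrays. All Six2 values were below all control values, with a difference of -0.42 (SE 0.12) and an adjusted p of 0.066 by limma. Its 4 shared rows ran from -0.43 to -0.23, and a dim row of its own gave 0.46. Rpl7a, a large subunit protein, had 11.17, 11.25 and 11.24 in Six2, against 11.42, 11.43 and 11.43 in control. The groups were apart by a difference of -0.21 (SE 0.08, adjusted p 0.14 by limma), and its 7 shared rows had a median of -0.21. Rpl12, which forms part of the base of the stalk that binds translation factors, had 8.87, 9.04 and 9.33 in Six2, against 8.84, 8.52 and 8.79 in control. Its difference of 0.37 (SE 0.15, adjusted p 0.15 by limma) had the other sign, with Six2 above control on every array. Its rows spread from -0.37 to 0.47, and the 4 shared rows all lay between -0.14 and -0.11. The median difference of the other 735 genes of chromosome 2 with a mean above 6 was -0.07, and of those with a mean above 10 it was -0.11.

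Several further small subunit genes missed the threshold. Rps6, the substrate of the S6 kinases downstream of mTORC1, had 7.19, 6.96 and 7.11 in Six2, against 8.04, 7.36 and 7.54 in control. The groups did not overlap, and the first control array was the highest. The difference was -0.56 (SE 0.18, adjusted p 0.082 by limma). Its rows gave -0.41 to -0.31, all nearer to 0 than the gene value, because the median is taken on each array separately. Its 5 shared rows had a median of -0.04. Rps14, whose loss causes the anaemia of human 5q- syndrome, had 10.44, 10.41 and 9.99 in Six2, against 10.83, 10.66 and 10.69 in control. Every Six2 value was below every control value, and the third Six2 array was the lowest. The difference was -0.44 (SE 0.14, adjusted p 0.081 by limma), with its 3 rows between -0.53 and -0.38. Rps19, mutated in human Diamond-Blackfan anaemia, differed by -0.27 (SE 0.10, adjusted p 0.11 by limma), with 11.02, 10.86 and 10.98 in Six2, against 11.33, 11.15 and 11.20 in control. Rps24, another gene of that anaemia, differed by -0.22 (SE 0.09, adjusted p 0.15 by limma). Rps6, Rps14, Rps19 and Rps24, like Rpsa, Rpl21, Rpl11 and Rpl5 below, were chosen for description after their values were seen.

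Rpsa, a small subunit protein also known as the laminin receptor, had the highest difference of the members. Its values were 9.29, 9.12 and 8.81 in Six2, against 8.58, 8.22 and 8.63 in control. All Six2 arrays were above all control arrays, with a difference of 0.60 (SE 0.16, adjusted p 0.053 by limma). The rows disagreed in size. A dim pair gave 1.04 and 0.93, a bright pair with identical values gave 0.16, and 8 shared rows lay between 0.05 and 0.16. Without the third Six2 array the difference was 0.73 (adjusted p 0.038 by limma), and with the shared rows it was 0.11 (adjusted p 0.42).

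Over the 24 small subunit genes the median difference was -0.14, and 18 were negative. Over the 42 large subunit genes it was -0.02, and 27 were negative. Neither figure was tested. Among the large subunit proteins that bind the Mdm2 ubiquitin ligase when ribosome assembly fails, Rpl11 and Rpl5 gave unlike values. Rpl11 had 10.44, 10.41 and 10.44 in Six2, against 10.65, 10.65 and 10.64 in control, which put the groups apart by -0.22 (SE 0.08, adjusted p 0.11 by limma). Rpl5 had 11.26, 11.23 and 11.19 in Six2, against 11.18, 11.23 and 11.20 in control, with a difference of 0.02 and a 95% interval from -0.17 to 0.21. Rpl21, a large subunit protein, had 7.72, 7.77 and 7.98 in Six2, against 7.42, 7.60 and 7.50 in control. Its groups did not overlap (0.32, SE 0.11, adjusted p 0.093 by limma), while its 28 shared rows had a median of 0.03. The acidic stalk proteins, which recruit the translation GTPases, gave 0.07 for Rplp0, 0.03 for Rplp1 and -0.09 for Rplp2, with overlapping groups in each.

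Of the 7 paralogs, 0 passed the test, 1 had a positive and 6 a negative difference. Rpl22l1, the paralog of Rpl22, had 5.79, 5.32 and 5.47 in Six2, against 4.71, 4.99 and 5.14 in control. All Six2 arrays were above all control arrays, with a difference of 0.58 (SE 0.16, adjusted p 0.056 by limma). Its 4 rows ranged from -0.37 to 0.94, and the brightest of them passed with 0.94 when it stood for the gene (adjusted p 0.035 by limma). Rpl22 itself differed by -0.04, with overlapping groups. Rps27l, a target of p53, had 10.39, 10.37 and 10.32 in Six2, against 10.51, 10.48 and 10.53 in control, apart by -0.15 (SE 0.08, adjusted p 0.28 by limma). Rpl7l1 also had non-overlapping groups, at -0.21 (SE 0.09, adjusted p 0.17). Rpl36al, a close copy of Rpl36a, gave -0.02, and Rpl36a gave -0.01, and RNA of either may bind probes of the other. Rpl3l, a form of striated muscle, and the testis forms Rpl10l and Rpl39l were dim, with values between 2.85 and 4.38 on every array. They differed by -0.46 (SE 0.26), -0.26 (SE 0.10) and -0.34 (SE 0.22) without passing the test. Rpl10l, on chromosome 12, gave -0.47 and passed with the chromosome median subtracted (adjusted p 0.031 by limma). That median comes from genes with a mean above 6, while Rpl10l had a mean of 4.15. Whether it holds for so dim a gene was not tested.

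**Figure D2:**
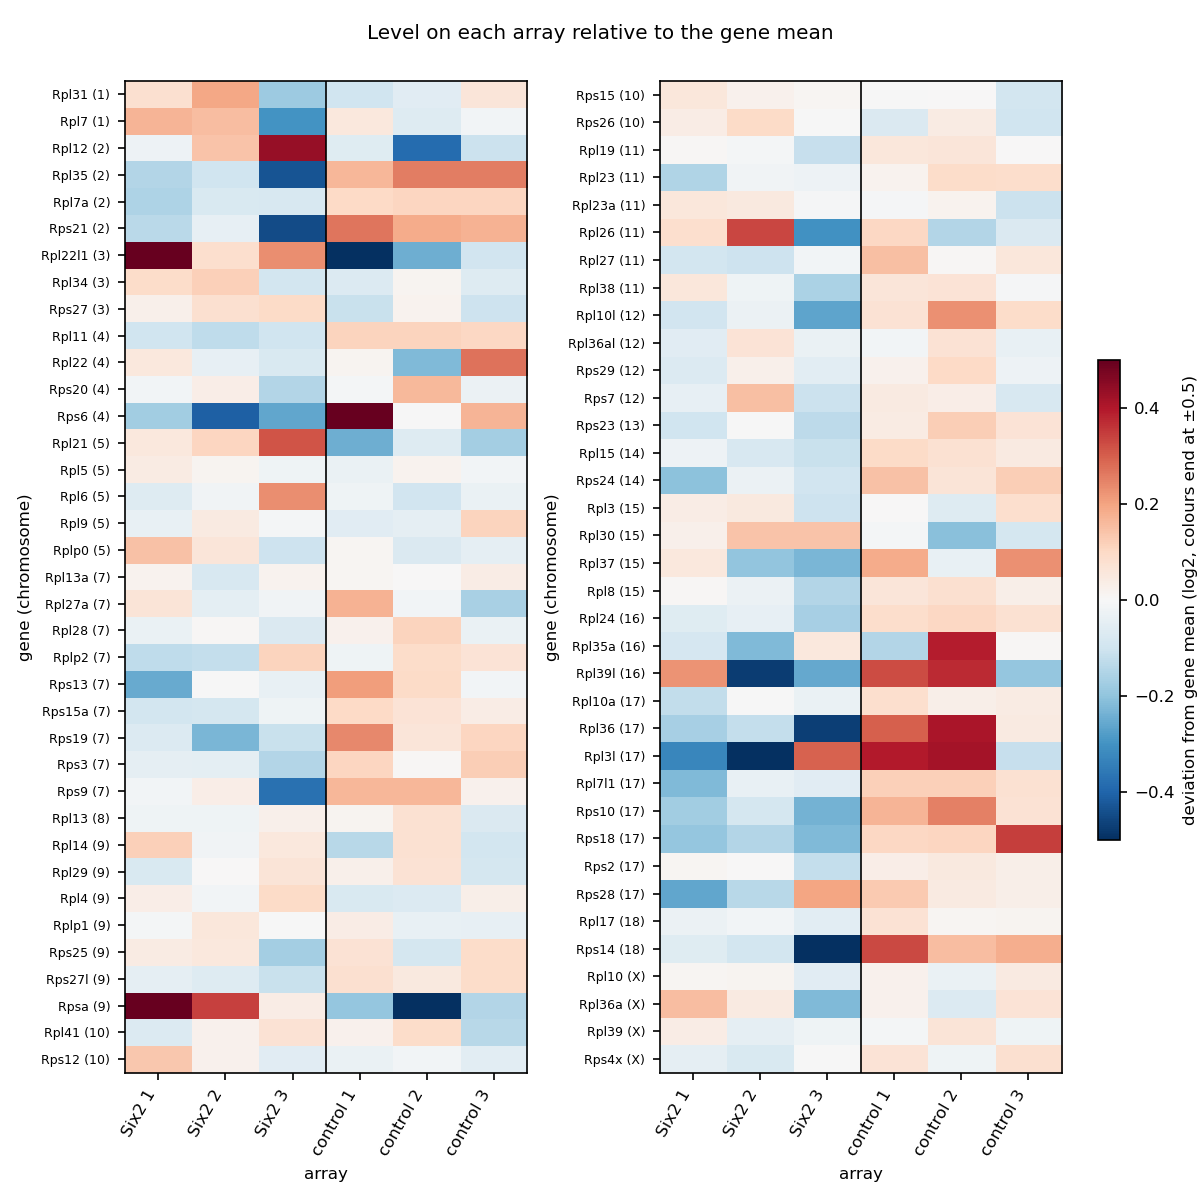
Level of each ribosomal protein gene on each array as the deviation from its mean over the 6 arrays (log2, colour), with the 3 Six2 arrays left of the 3 control arrays and the chromosome in brackets. Most rows are close to white, and the third Six2 array is the lowest of the 6 for Rpl35, Rps21 and Rps14.

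Across arrays the members moved as a group by little. The median deviation of the 73 genes from their own means was -0.03, -0.02 and -0.06 on the Six2 arrays, and 0.04, 0.05 and 0.03 on the control arrays. RMA gives all arrays like distributions, so a change in total RNA per cell, ribosomal RNA included, is not visible here, and fewer cells of a type cannot be told apart from less RNA per cell.

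By chromosome, the members followed their neighbours in part. The median difference of other genes with a mean above 6 ran from -0.26 on chromosome 17 to 0.44 on chromosome 1. Over the 69 members with a mean above 6, the difference of a member against the median of the other genes of its chromosome gave a Pearson correlation of 0.479 and a Spearman correlation of 0.587. The points share arrays and, within a chromosome, the same median. Without chromosomes 1, 3 and 17 the 58 members left gave 0.393 and 0.484. Against the median of the 20 nearest genes the 69 members gave 0.365 and 0.46. No member lies on chromosomes 6 or 19.

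Chromosome 1 had the highest shift, with 272 of its 495 other genes above a mean of 6 called higher in Six2 and 15 called lower. Its members stayed below that shift. Rpl31, near the exit of the peptide tunnel, had 8.25, 8.37 and 7.99 in Six2, against 8.07, 8.12 and 8.23 in control, with overlapping groups and a difference of 0.06 (95% interval -0.22 to 0.35). Rpl7, a large subunit protein measured by 1 row, had 9.92, 9.90 and 9.45 in Six2, against 9.80, 9.68 and 9.73 in control, a difference of 0.02 (95% interval -0.32 to 0.35). The third Six2 array was the lowest for both genes. Rows that name these genes together with predicted genes gave higher values. All 15 of them lay between 0.14 and 0.30, and 12 had Six2 wholly above control (against 14.6% of all rows), though 0 passed. These rows read the same genes repeatedly and were bright, with means from 10.44 to 12.06. The share of all rows is not matched for that level. The brightest row of Rpl31 alone gave 0.37 and passed when it stood for the gene (adjusted p 0.044 by limma). The bright other genes of chromosome 1, with a mean above 10, had a median of 0.34.

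On chromosome 3 the other genes had a median of 0.37, and 178 of 417 were called higher. Its other genes with a mean above 10 had a median of 0.21. Rps27, a zinc finger protein of the small subunit, had 8.80, 8.86 and 8.88 in Six2, against 8.67, 8.80 and 8.67 in control. Six2 was above control throughout, by 0.13 (SE 0.09, adjusted p 0.36 by limma). Rpl34, a large subunit protein, had 10.86, 10.89 and 10.68 in Six2, against 10.70, 10.79 and 10.71 in control, with overlapping groups and a difference of 0.08 (SE 0.10). Rpl22l1, described above, lay above the median of its chromosome. Rps3a has no row of its own, and its 9 rows shared with predicted genes lay between 0.19 and 0.66 (median 0.24), with 0 passing the test.

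On chromosome 17, where the other genes had a median of -0.26 and 154 of 447 were called lower, all 8 members had negative differences (median -0.27, from -0.50 to -0.07), and 0 passed. Other genes of chromosome 17 with a mean above 10 had a median of -0.18. Rps18, at the contact between the subunits, had 9.53, 9.57 and 9.50 in Six2, against 9.83, 9.83 and 10.07 in control. The groups were apart by -0.37 (SE 0.10), and the adjusted p of 0.0501 by limma was just above the threshold. Rpl36, of the large subunit, had 9.28, 9.33 and 8.98 in Six2, against 9.75, 9.86 and 9.49 in control, also without overlap (-0.50, SE 0.14, adjusted p 0.055 by limma). Without the third control array it differed by -0.61 and passed (adjusted p 0.049 by limma). Rps10, near the entry of the mRNA channel, had 11.08, 11.16 and 11.02 in Six2, against 11.42, 11.51 and 11.33 in control. Its difference was -0.33 (SE 0.09, adjusted p 0.058 by limma), and its 10 rows all lay between -0.48 and -0.18. Rps2, with 13 rows the member with the most, differed by -0.07, Rpl10a by -0.11 and the paralogs Rpl7l1 and Rpl3l as given above. Rps28, with 1 row, differed by -0.14. Its 8 shared rows ran from -0.53 to -0.30, and with them it differed by -0.33 and passed as lower (adjusted p 0.039 by limma). The 24 shared rows of this chromosome ran from -0.53 to -0.04, with Six2 wholly below control in 23 (against 15.2% of all rows) and 0 passing. They are repeated readings of Rpl10a, Rpl36, Rps2, Rps18 and Rps28, with means from 9.18 to 13.11. The median of all rows was between 5.83 and 5.91 on each array, so that share is not matched for level. With the median of the chromosome subtracted on each array, Rps18 differed by -0.09 and Rpl36 by -0.22.

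Elsewhere the members of some chromosomes lay near their other genes and those of others did not. All 9 members on chromosome 7 were negative, with a median of -0.14 against -0.13 of the other genes. Rps16 of this chromosome has shared rows only, and these 8 had a median of -0.26. The 4 members on chromosome X had a median of -0.02, as did its other genes. The members of chromosome 16 had a median of -0.18, the same as the others there. Members and other genes had medians of 0.07 and 0.11 on chromosome 5, -0.08 and -0.11 on 11, and -0.06 and -0.09 on 15. On chromosome 4 the members had -0.15 and the other genes -0.07. On chromosome 10 the 4 members (Rpl41, Rps12, Rps15 and Rps26) lay between 0.02 and 0.09, against 0.17 for the other genes. Chromosome 12 had 4 members at a median of -0.04 and its other genes at 0.22. The 7 members of chromosome 9 had a median of 0.03, against 0.13, and the 2 of chromosome 14 of -0.18, against -0.03. The single members of chromosomes 8 (Rpl13, -0.01, against 0.18) and 13 (Rps23, -0.15, against -0.04) also lay below their other genes. On chromosome 18, Rps14 at -0.44 and Rpl17 at -0.07 stood beside other genes at 0.05. These other genes had a mean above 6, while 45 of the 73 members had a mean above 10. Other genes above 10 had medians of -0.14 on chromosome 7, -0.05 on X, -0.13 on 16 and 0.10 on 10. They were 0.16 on chromosome 12, 0.03 on 9, -0.09 on 14, 0.13 on 8, -0.01 on 13 and -0.003 on 18. On chromosomes 4, 5, 11 and 15 they were -0.11, 0.09, -0.05 and -0.12.

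The rows by themselves gave few calls. Of the 359 member rows, 1 passed as higher and 0 as lower (limma, adjusted over all rows), against 1.2% and 1.6% of all rows (2.8% in either direction). At an unadjusted p under 0.05, 12 were higher and 16 lower, against 11% and 11.2% of all rows. The row that passed belongs to Rpl6 and had 6.58, 6.82 and 6.64 in Six2, against 6.01, 5.77 and 5.94 in control, a difference of 0.77 (SE 0.14, adjusted p 0.048 by limma). The other 2 rows of Rpl6, which are brighter, gave 0.10 and 0.02. Six2 lay wholly above control in 32 member rows and wholly below it in 99, against 14.6% and 15.2% of all rows. Most members are bright and have several rows, while the median of all rows was between 5.83 and 5.91 on each array. These shares are therefore not matched for level. A further 258 rows name 1 ribosomal protein gene beside predicted genes or pseudogenes, over 39 genes. Of these 0 passed, with a median of -0.05, 2 higher and 17 lower at an unadjusted p under 0.05. Identical values on all arrays were held by 19 member rows in 9 genes, which leaves 349 distinct rows.

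**Figure D3:**
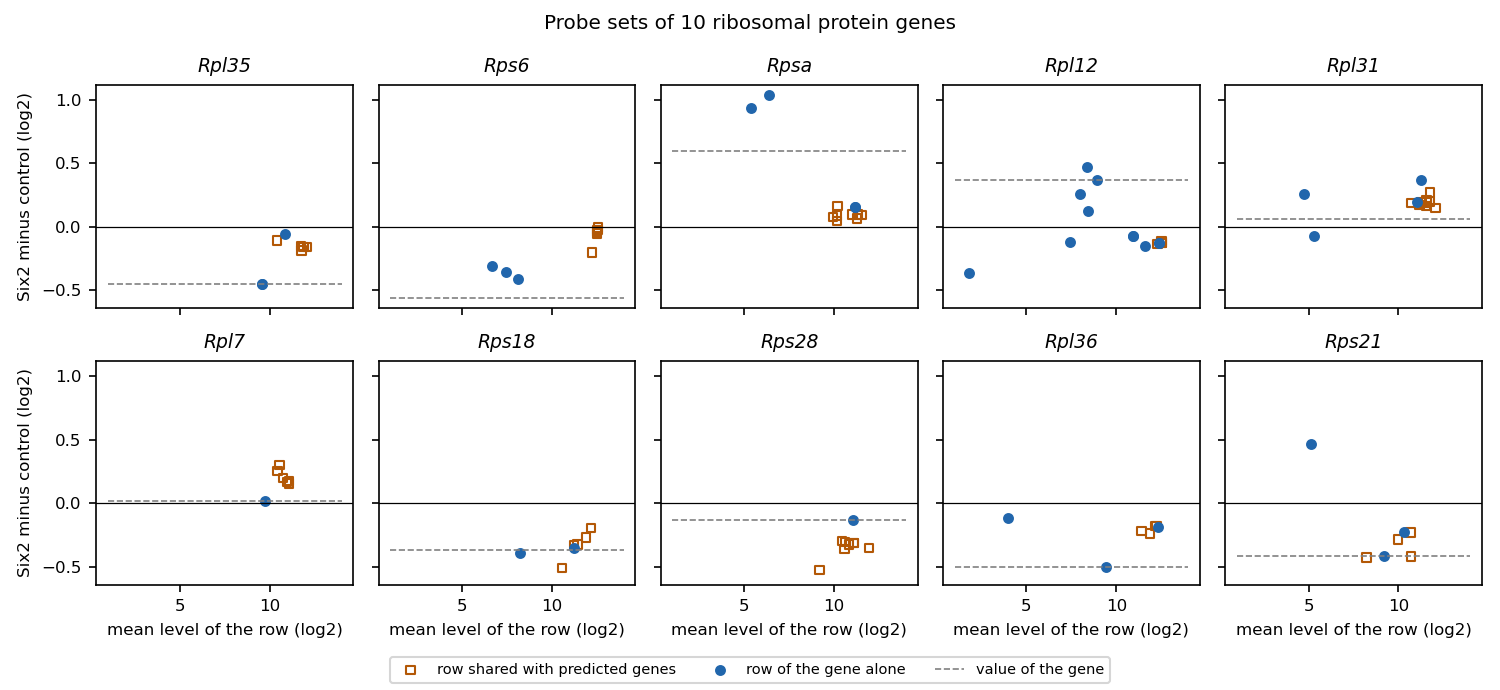
Rows of 10 ribosomal protein genes, with the mean log2 level of the row on the horizontal and Six2 minus control (log2) on the vertical axis. Filled points are rows of the gene alone, open squares rows shared with predicted genes, and the dashed line the value of the gene. The dim rows of Rpsa lie near 1 while its bright and shared rows lie near 0.1.

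Genes that build the ribosome or act with it are given beside its proteins, from lists drawn up for this purpose. The assembly of ribosomes takes many factors that process ribosomal RNA in the nucleolus, and of 71 measured 15 rose and 2 fell (23.9% called), with a median of 0.10. The share called was 14.7% of all genes and 24.8% of the other genes with a mean above 6. The list's share in either direction was thus close to that of expressed genes. By direction it differed, since 1095 of those 8905 genes rose and 1116 fell, against the 15 and 2 of 71 here. Wdr12, of a complex that matures the large subunit, had 8.49, 8.49 and 8.82 in Six2, against 7.58, 7.53 and 7.68 in control (1.00, SE 0.12, adjusted p 0.0032 by limma). Nop58, a core protein of box C/D small nucleolar particles, rose by 0.83 (SE 0.10), Nmd3, an export adaptor of the large subunit, by 0.67 (SE 0.09), and Nvl by 0.76 (SE 0.10). Nop10, of the box H/ACA particles, fell by 0.53 (SE 0.09) and Rrp7a fell by 0.66 (SE 0.17). The rises were partly grouped by chromosome, since 7 of the 8 list members on chromosome 1 rose, 2 of 3 on chromosome 3 and 6 of 60 on the others. With chromosome medians subtracted, 7 rose and 2 fell (Nmd3, Nvl and Rrp7a then had adjusted p of 0.057, 0.077 and 0.065 by limma), and with any of the 6 arrays left out 7 to 10 rose and 1 to 2 fell.

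Host genes of small nucleolar RNAs release the guide RNAs of ribosomal RNA modification from their introns. Of 10 listed only 4 were measured, and of these 3 rose and 0 fell. Over all genes 6.7% rose and 8.02% fell, and of other genes with a mean above 6, 1095 of 8905 rose and 1116 fell. Gas5 had 9.39, 9.50 and 9.27 in Six2, against 8.28, 8.21 and 8.43 in control, a difference of 1.08 (SE 0.11, adjusted p 0.0014 by limma). Snhg5 on chromosome 9 rose by 0.93 (SE 0.11) and Snhg1 on chromosome 19 by 0.75 (SE 0.10). Zfas1 differed by 0.25 (SE 0.09, adjusted p 0.10 by limma), with Six2 above control on every array. With any of the arrays left out, 3 of the list rose. The Gas5 start site carries the pyrimidine tract shown above, and no window with a tract at the start was found for Snhg1 or Snhg5. Whether the tract goes with the rise was not tested.

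Of 12 other mRNAs with such tracts and elongation factors, 1 rose and 0 fell (8.33% called, against 14.7% of all genes). That gene was Ncl, which encodes nucleolin, on chromosome 1 (0.35, SE 0.09, adjusted p 0.044 by limma), and with the chromosome median subtracted it gave -0.09 (adjusted p 0.56). Nap1l1, a histone chaperone, differed by as much with Six2 above control on every array (0.35, SE 0.11) but did not pass (adjusted p 0.070 by limma). Eef1a1 and Eef2, the factors that carry tRNA and move the ribosome, both differed by 0.03, and Tpt1 by -0.03. Among 28 initiation factors 4 rose and 1 fell. That was 17.9% called, against 14.7% of all genes and 24.8% of other genes with a mean above 6. Eif4e, the cap-binding protein, on chromosome 3, had 7.67, 7.59 and 7.62 in Six2, against 6.47, 6.43 and 6.64 in control (1.12, SE 0.10, adjusted p 0.0009 by limma). Eif5b on chromosome 1 rose by 0.71 (SE 0.13), Eif2s1 by 0.36 (SE 0.08) and Eif5 by 0.34 (SE 0.09), while Eif5a fell by 0.58 (SE 0.12). With chromosome medians subtracted 1 rose (Eif4e, 0.76, adjusted p 0.0037 by limma) and 0 fell. The adjusted p of Eif5b, Eif2s1, Eif5 and Eif5a was then 0.20, 0.28, 0.38 and 0.052. Leaving out any array left 2 initiation factors that rose and 0 to 1 that fell, and the elongation and TOP list then held 1 that rose without the third Six2 array and 0 without any other array.

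For RNA polymerase I and its factors, 3 of 16 rose and 1 fell. That was 25% called, against 14.7% of all genes and 24.8% of other genes with a mean above 6. The 3 were Taf1a (0.53), Taf1d (0.49) and Taf1c (0.38), subunits of the promoter selectivity factor, and the shared polymerase subunit Polr2l fell by 0.43. With chromosome medians subtracted 0 rose and 0 fell, with adjusted p of 0.51, 0.061 and 0.24 for the 3 Taf genes in that order and 0.064 for Polr2l by limma. Among the left-out arrays, only the fit without the third Six2 array gave 3 higher and 1 lower again, and the other 5 left-out arrays gave 1 higher and 0 lower. Of 13 assembly chaperones and associated factors, Heatr3 (0.83, SE 0.14) and the importin Ipo9 (0.46, SE 0.09) rose and 0 fell. That was 15.4% called, against 14.7% of all genes and 24.8% of other genes with a mean above 6. Ipo9 lies on chromosome 1 and gave 0.02 (adjusted p 0.90 by limma) with the chromosome median subtracted. Among 22 regulators of ribosome synthesis, 2 rose and 4 fell. That was 27.3% called, against 14.7% of all genes and 24.8% of other genes with a mean above 6. Deptor, an inhibitor of mTOR, fell by 0.98 (SE 0.12), Maf1, a repressor of RNA polymerase III, by 0.61 (SE 0.09), the kinase Rps6ka1 by 0.53 (SE 0.09) and Tsc2, a brake on mTORC1, by 0.47 (SE 0.11). Mdm2 rose by 0.58 (SE 0.12) and Max by 0.40 (SE 0.10), while Mtor (-0.08) and Myc (-0.03) did not pass. Max (adjusted p 0.31 by limma) and Tsc2 (adjusted p 0.32) did not pass with chromosome medians subtracted. With an array left out, 0 to 2 of the regulators rose and 3 to 4 fell, and 1 to 2 of the chaperones rose. Fau, which encodes a small subunit protein fused to a ubiquitin-like one, was the only measured gene of the list of other subunit genes. It had 11.33, 11.38 and 11.30 in Six2, against 11.62, 11.67 and 11.54 in control, a difference of -0.28 (SE 0.09, adjusted p 0.077 by limma).

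**Figure D4:**
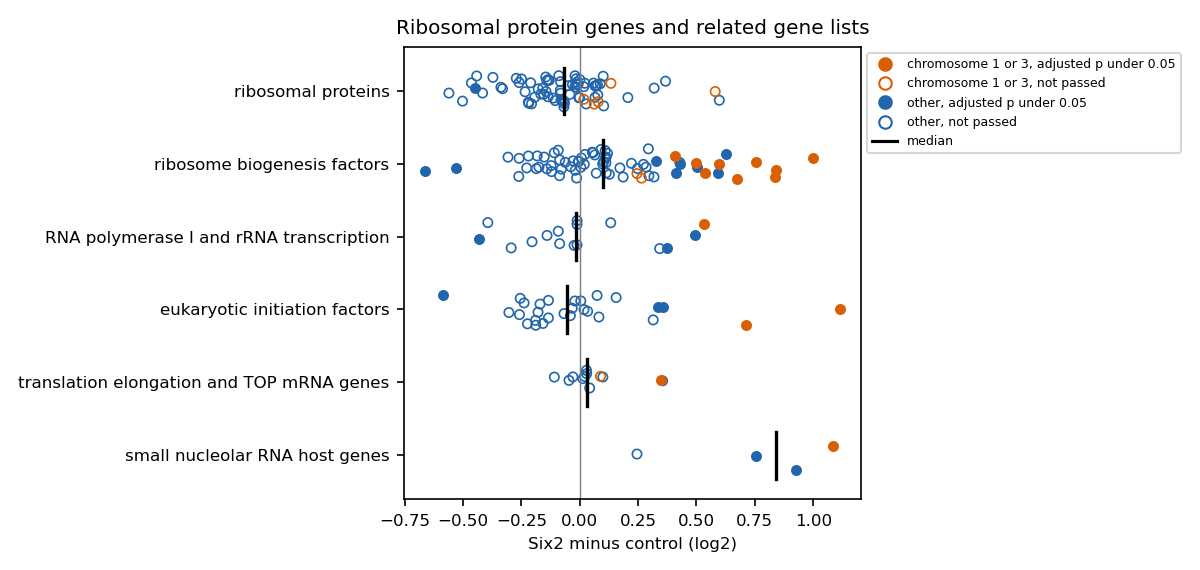
Six2 minus control (log2, horizontal axis) for each gene of the ribosomal protein genes and 5 related lists. Filled points passed the test (adjusted p under 0.05), orange marks genes on chromosomes 1 and 3, and the black bars are medians. Ribosomal proteins have 1 filled point, Rpl35, and the snoRNA host genes have the highest of the 6 medians.

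The Six2 probe sets did not check the labels. Six2 itself had 3.60, 3.94 and 4.03 on the Six2 arrays, against 3.69, 3.25 and 3.62 on the control arrays, with overlapping groups and a difference of 0.33 (SE 0.16, adjusted p 0.22 by limma, 4 rows). The part of the transcript that the vector carries is not given in the sources used here. Cdh1, which encodes E-cadherin, averaged 4.41 in Six2 and 7.57 in control (-3.16, adjusted p 6.6e-05 by limma). Of 8 epithelial markers 2 (Krt8 and Krt18) had a mean over all arrays above 6. In control, Cdh1 (7.57) and Krt7 (6.16) were above 6 as well. Of the 8, 5 fell, which were Cdh1, Krt7 (-2.27), Krt19 (-1.24), Krt18 (-0.81) and Krt8 (-0.56). The markers of endothelial cells (5), adipocytes (4), myoepithelial cells (5) and red cells (1) had 0 above 6 and 0 changed, those of leukocytes had 1 of 6 above 6 and 2 lower, and those of fibroblasts 1 of 7 above 6 and 1 lower. Over the epithelial list the median level was 4.28 in Six2 and 5.78 in control, and its part in the ribosomal protein values was not tested.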

How the data were processed

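Per the submitters' processing notes the authors used RMA in Affymetrix Power Tools, and the deposited values are log2 values per probe set. RMA corrects the background, quantile-normalizes and summarises probes. The genome build, versions and row filter are not stated in those notes, so coordinates come from RefSeq. Chromosomes and gene positions were taken from its gene entries, and the start-site windows from its promoter entries. Groups and replicate numbers came from the labels, and the number of arrays, 3 per group, limits the precision.

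Gene names came from the platform annotation, updated through RefSeq GRCm38.p6 synonyms. Of 20893 symbols, 18496 were found as given, 2354 were replaced and 43 were not found. Of the rows, 213361 had 1 symbol, 5107 several and 23108 none. Each gene was given the median of the rows that carry its symbol alone. Groups were compared with limma 3.58.1 (lmFit, eBayes without trend) in R 4.3.3, Six2 minus control, two-sided, with Benjamini-Hochberg adjustment over all 20848 genes or 241576 rows and a threshold of 0.05. SE is moderated. Fits were tested on simulated data. Promoter windows were searched with Python 3.11.15.

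The members and gene lists were chosen with earlier results of these data known. The text names members that passed, all members on chromosome 2 (a chromosome with at least 3 members of which 1 passed) and on chromosomes 1, 3 and 17, all paralogs, and up to 4 called genes per direction of each list. Members given as values or counts only, and those named as chosen later, fall outside that rule. Rps4y2, now listed as a pseudogene, was left out. Same-numbered arrays did not deviate together (correlations of -0.006, -0.008 and -0.054), so numbers were not used as pairs. Alternatives covered the summary per gene, dim rows (lowest 30 percent), normalization, chromosome shifts, variance model, a replicate block, each array left out and, added after seeing the data, shared rows and identical rows. Ribosomal proteins without a row of their own were not analysed here, apart from the shared rows described.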

Additional observations from a re-analysis of the deposited data

How the results depend on the processing

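The count of ribosomal protein genes that rose was 0, and it was 3 with the mean of the rows, 2 with the brightest row, 2 with a variance trend and robust variance, 1 without dim rows, 1 with neighbour medians subtracted (Rps2 then passed as higher, at 0.40, adjusted p 0.040 by limma, against -0.07 before) and 0 to 1 with an array left out. The count that fell was 1, and it was 6 with the mean of the rows, 4 without dim rows, 4 with neighbour medians subtracted, 2 with quantile normalization, 2 with arrays centred on the median, 13 with a variance trend, 2 with shared rows added, 0 with identical rows counted once and 0 to 1 with an array left out. With chromosome medians subtracted the 1 that fell was Rpl10l (-0.47, adjusted p 0.031 by limma), a dim gene as described above. With the brightest row the 1 that fell was Rps14 (-0.38, adjusted p 0.040 by limma). The median difference was -0.0939 with arrays centred on the median, -0.0486 with neighbour medians subtracted and -0.0873 to -0.0430 with an array left out, against -0.0679. For single rows, the 1 that rose became 4 without dim rows and 0 with quantile normalization, with centred arrays, with the replicate block and with any array left out, and the 0 that fell became 1 without dim rows and 11 with a variance trend. Rpl35 kept its sign in all 18 alternatives and lost the call in 11, with adjusted p from 0.0043 to 0.78 by limma. With replicate number as a block, 0 members rose and 1 fell, which was Rpl36 (-0.50, adjusted p 0.042 by limma), while Rpl35 gave an adjusted p of 0.086, and 1828 of all genes were called. Of 71 ribosome biogenesis genes, 15 rose, against 23 with a variance trend, 21 with the mean, 8 with the brightest row, 8 with the block and 7 to 10 with an array left out, and of the 4 small nucleolar RNA host genes 1 rose with the brightest row. Over all genes the calls ranged from 1565 with control replicate 2 left out to 4858 with the mean of the rows. The causes of these changes were not tested.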
